A study of Rattus norvegicus with 96 samples.

Results

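Heat shock proteins are described here in the brain of alcohol-preferring (P) rats, a line bred for high voluntary ethanol intake. The set holds 10 genes: Dnajb1, Dnaja1, Hspa8, Hspa4, Hsp90aa1, Hsp90ab1, Hsph1, Hspb1, Hspd1 and Hspe1. Every probe set that the platform annotation maps to one of these symbols was taken, whatever its values, which gave 15 of the 31099 probe sets on the array. All 15 passed the filter on dim probe sets in both regions. Of the 10 genes, 8 encode chaperones of the cytosol and nucleus. Hspd1 and Hspe1 encode the chaperonin of the mitochondrial matrix and its lid, so the name cytosolic does not hold for that pair.

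RNA was measured on 96 Affymetrix rat arrays, 48 of the amygdala's central nucleus (CeA), an output nucleus involved in fear and stress, and 48 of the accumbens shell (NAc shell in the plots), a striatal part of the reward system. All rats were of the P line. Ethanol rats had limited access to ethanol, called binge drinking in the title of the series. Water rats were the controls. Rats were sampled at 1, 6 or 24 h from the end of their last session, which gives 12 groups. At 1, 6 and 24 h the CeA groups numbered 11, 10 and 10 arrays of ethanol rats and 6, 5 and 6 of water rats. In the accumbens shell they numbered 10, 10 and 11 of ethanol rats and 7, 5 and 5 of water rats. The labels give no age, sex, dose or ethanol intake, do not say whether an array holds 1 rat or a pool, and do not link the regions of a rat, so a p value measures the spread between these arrays. The question that the design addresses is whether RNA levels differ with ethanol and with the hours since the last session.

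A chaperone holds unfolded stretches of another protein until they fold, are passed on or are degraded. In the cytosol, J-domain proteins (Dnajb1, Dnaja1) bring clients to the Hsp70 Hspa8 and stimulate its ATPase, exchange factors of the Hsp110 family (Hsph1, Hspa4) release the nucleotide, and many kinases and steroid receptors move on to Hsp90 (Hsp90aa1, Hsp90ab1). The small heat shock protein Hspb1 keeps unfolded protein from aggregating without using ATP and in brain is best known from glia, vessels and stressed neurons. Heat shock factor 1 (Hsf1) binds repeated GAA units in the promoters of stress-inducible members, while Hspa8 and Hsp90ab1 are classed as constitutive forms that cells make without stress.

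Promoter stretches with a match upstream of the start are shown for the members that vary together across arrays or differ with the hours since the session, because that class of repeat is what these genes are known to share. RefSeq windows on the GRCr8 build, from 250 bases before to 50 bases after an annotated start, were found for 9 of the 10 members, all but Hsp90aa1. The letters GAANNTTC or TTCNNGAA, each its own reverse complement, so that a search covers both strands, were in the window of 7 of 9 members. Of all 33469 windows of that length, 15.9% held them. A further unit in the same spacing (GAANNTTC followed by NNGAA, or TTCNNGAA followed by NNTTC, reverse complements of each other that contain the short forms) was in the windows of 5 of 9 members (Dnaja1, Hspa8, Hsph1, Hspd1 and Hspe1) and in 0.798% of all windows. Hspa4 and Hsp90ab1 held none of these letters in the window, which says nothing about other positions. The windows of Hspa4, Hsp90ab1 and Hspd1 are set from a start inside the gene's annotated span, not at its outer end. The Hspa4 window is chr10:37949786-37950085 on the minus strand, in a gene that ends at 37951994. The Hsp90ab1 window is chr9:22930173-22930472 on the plus strand, and the gene starts at 22930249. The Hspd1 window is chr9:64083988-64084287 on the minus strand, in a gene that ends at 64084332. The stretches printed here lie upstream of the start, read 5′ to 3′ on the gene's strand, with the matched letters in capitals. Dnaja1 is at chr5:60638211-60638242 on the plus strand, Hspa8 at chr8:50080289-50080483 on the plus strand, Hsph1 at chr12:10427251-10427356 on the plus strand, Hspe1 at chr9:64084250-64084291 on the plus strand, Hspb1 at chr12:26432391-26432442 on the minus strand and Dnajb1 at chr19:41431142-41431164 on the minus strand.
Dnaja1: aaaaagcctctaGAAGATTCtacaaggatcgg
Hspa8: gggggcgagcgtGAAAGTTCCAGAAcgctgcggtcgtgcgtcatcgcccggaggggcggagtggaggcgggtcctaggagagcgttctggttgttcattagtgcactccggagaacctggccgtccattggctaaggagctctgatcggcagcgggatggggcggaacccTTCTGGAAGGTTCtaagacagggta
Hsph1: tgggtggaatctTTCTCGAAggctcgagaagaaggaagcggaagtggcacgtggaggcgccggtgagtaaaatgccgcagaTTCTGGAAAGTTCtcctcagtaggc
Hspe1: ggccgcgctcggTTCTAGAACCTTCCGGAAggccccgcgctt
Hspb1: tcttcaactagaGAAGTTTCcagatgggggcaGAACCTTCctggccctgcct
Dnajb1: tcgggaggggcgGAAGGTTCtgg
The Hspe1 stretch is also the one found for Hspd1. These genes run in opposite directions, and the starts used for their windows are 290 bases apart. Their windows share 211 bases, and the run of matches lies 65 bases before the Hspe1 start and 242 bases before the Hspd1 start used here. The Dnaja1 stretch holds a short match, while its long match lies after the start and is not printed. Hspa8 has a long match at each end of the printed stretch, and Hsph1 has a short match followed by a long one. A match is a description of the letters and was not tested as a binding site.

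Levels are log2 values made by RMA, a method that combines the probes of a probe set into 1 value per array. They compare arrays within a probe set, not genes with each other, because probe sets differ in binding. The median log2 value of an array lay between 7.68 and 7.82 (CeA) or between 7.78 and 7.85 (accumbens shell). By their correlation with the other arrays of the region, 4 CeA arrays (1 at 1 h, 3 at 6 h, none at 24 h) and 5 accumbens shell arrays (1, 2 and 2) stood apart. The RNA end difference, here the log2 level of the 3′ Gapdh control probe set minus that of the 5′ one, which is larger where RNA is shorter or less completely copied, was 2.91 ± 0.53 (SD, n = 48) in the CeA and 1.81 ± 0.25 (SD, n = 48) in the accumbens shell. Its means at 1, 6 and 24 h were 2.92, 2.95 and 2.87 in the CeA and 1.68, 1.88 and 1.88 in the accumbens shell. The tissue labels were checked against marker lists. Of 10 medium spiny neuron markers, the 9 on the array averaged a log2 level of 12.40, 12.28 and 12.40 in the accumbens shell at these times and 10.26, 10.20 and 10.36 in the CeA, and 9 of 9 were higher in the accumbens shell in water rats. Of 8 central amygdala markers, the 7 on the array averaged 9.94, 9.83 and 10.13 in the CeA and 9.48, 9.53 and 9.43 in the accumbens shell. This list went both ways between regions: of 5 tested in water rats, Cyp26b1 (-3.96) and Prkcd (-0.69) were lower in the accumbens shell, and Cartpt (2.98), Sst (0.45) and Nts (0.45) were higher. In bulk tissue, fewer cells of a type and less RNA per cell cannot be told apart.

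Most members were far above the filter limits, and several varied little between CeA arrays. The probe set of Hspa8, the constitutive Hsp70, had a lowest, median and highest log2 level of 14.37, 14.64 and 14.77 over 48 CeA arrays, and 14.45, 14.75 and 15.18 over 48 accumbens shell arrays. Hspa8 is read by 1398240_at, which the annotation gives to Haus8l2 as well. Hsp90aa1, the inducible Hsp90, has 2 probe sets, both also annotated to the pseudogene Hsp90aa1-ps17. Its brighter one, 1372701_at, lay between 13.97 and 14.24 in the CeA with a median of 14.17, and between 13.94 and 14.77 in the accumbens shell with a median of 14.14. The CeA spread within groups of this probe set, a pooled SD of 0.059, was so small that 0.0268% of tested probe sets had a lower one. Hspa8 (0.078), Hspe1 (0.080) and Hspd1 (0.087) were almost as steady in the CeA, where the median over all tested probe sets was an SD of 0.219.

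Of the chaperonin pair, Hspd1 ran from 13.20 to 13.68 in the CeA (median 13.48) and from 13.20 to 13.81 in the accumbens shell (median 13.45). Hspe1 ran from 13.34 to 13.77 in the CeA (median 13.57) and from 13.12 to 13.61 in the accumbens shell (median 13.37). Of the J-domain proteins, Dnajb1 (1388722_at) had a mean of 12.40 ± 0.13 (SD, n = 48) in the CeA and 12.19 ± 0.15 (SD, n = 48) in the accumbens shell, and Dnaja1 (1368852_at) had 13.79 ± 0.13 and 13.35 ± 0.15.

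Hspb1, the small heat shock protein, lay near the filter limits of 6.96 in the CeA and 7.09 in the accumbens shell, with CeA values from 7.37 to 8.60 and accumbens shell values from 7.73 to 8.82. Probe sets that read the same gene differed widely in spread. Hsph1 has a steady probe set, 1388898_at, with 12.33, 12.69 and 12.96 as its lowest, median and highest CeA values, and a variable one, 1385620_at, with a lowest value of 7.51 and a median of 9.01. The second had a pooled SD of 0.641 in the CeA and 0.528 in the accumbens shell, higher than that of 98.3% and 98.5% of tested probe sets. Ordered by mean level, the 6 groups of a region were not separated for any member probe set: no neighbouring groups in the order had means further apart than the larger of their SDs. The range of group means went from 0.07 for Hsp90aa1 (1372701_at) in the CeA to 0.72 for Hsp90ab1 (1375335_at) in the CeA.

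**Figure D1:**
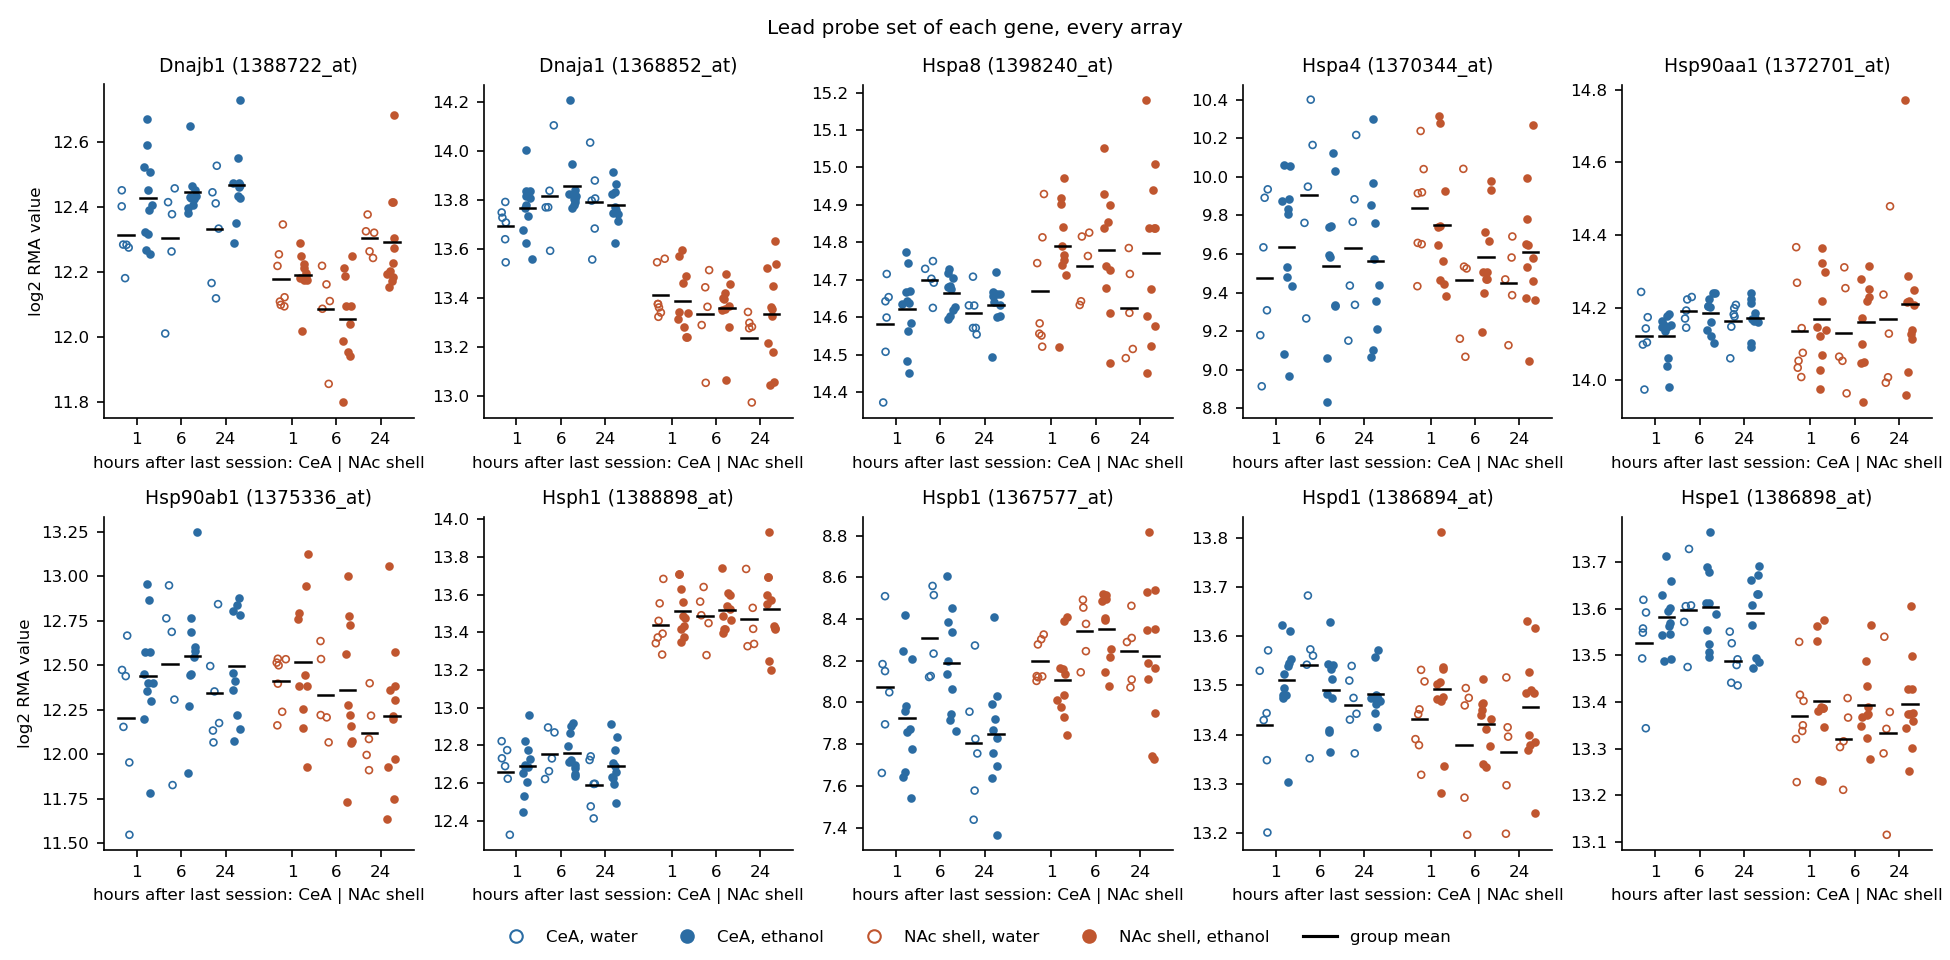
Log2 level (RMA) of the brightest probe set of each of the 10 genes on every array, by hours since the last session, for the CeA (blue) and the accumbens shell (orange). Open points are water rats, filled points ethanol rats and bars group means. The treatments overlap. For Hsph1 the arrays of the 2 regions do not, in a comparison that called 73.8% of all tested probe sets in water rats.

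No heat shock gene passed the test of ethanol against water, averaged over the 3 times, in either region. The constitutive Hsp90, Hsp90ab1, and the J-domain protein Dnajb1 had the smallest adjusted p values among members in the CeA, both with a higher mean in ethanol rats. In the accumbens shell these were a probe set of the J-domain protein Dnaja1 and 1 of Hsp90ab1, again with higher means in ethanol rats. The limma fit called 0 of 18625 probe sets at an adjusted p under 0.05 in each region, a background of 0% called. At an unadjusted p under 0.05, 3 of 15 member probe sets passed in the CeA against a background of 8.16% (1519 probe sets), and 3 of 15 in the accumbens shell against 11.1% (2061).

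Hsp90ab1 probe set 1375335_at in CeA ethanol rats had lowest, median and highest values of 11.47, 11.95 and 12.80 at 1 h, 11.60, 11.92 and 12.45 at 6 h, and 11.35, 11.64 and 11.73 at 24 h. In water rats the values at 1 h were 11.22, 11.60 and 11.87, those at 6 h were 10.71, 11.25, 11.50, 11.89 and 12.69, and those at 24 h from 10.50 to 11.69 with a median of 11.35. The treatments overlapped at each time, and for 29 of 31 ethanol arrays the value exceeded the mean of the water rats at the same hour. Ethanol minus water was 0.38 ± 0.11 (SE; 95% interval 0.16 to 0.59), 1.30-fold, with an adjusted p of 0.316 in limma. The other Hsp90ab1 probe set, 1375336_at, gave 0.14 ± 0.10 (SE). The title numbers of the CeA arrays fall into 4 runs in which the hours restart, and within these runs the difference for 1375335_at was 0.58, 0.12, 0.47 and 0.28. Run 4 holds 8 arrays, 6 of ethanol and 2 of water rats. Its water rats are at 6 h only and their arrays stood apart, so its ethanol difference is for 6 h alone. Leaving out the array of CeA water replicate 16 at 6 h, one of those that stood apart, gave 0.47 with an adjusted p of 0.0459, the only left-out array with which a member passed. In the CeA ethanol comparison, 6 of 6 tested central amygdala markers lay above 0 (median 0.28, 2 at an unadjusted p under 0.05) and so did 9 of 9 medium spiny neuron markers (median 0.17), beside 49.3% of all probe sets, and none passed. The 7 central amygdala markers summed to between 63.8 and 76.5 in ethanol rats and between 62.5 and 74.0 in water rats. Their part in the ethanol differences of the members was not tested.

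Dnajb1, which drives Hsp70 in refolding and is itself induced by heat, had medians of 12.41, 12.43 and 12.47 in CeA ethanol rats and 12.29, 12.38 and 12.37 in CeA water rats at 1, 6 and 24 h for 1388722_at. Groups overlapped at each time, and 28 of 31 ethanol arrays were above the water mean of their time. The difference was 0.13 ± 0.04 (SE; 95% interval 0.05 to 0.21), 1.09-fold, with an adjusted p of 0.341 in limma. Within the runs it was 0.14, 0.20, 0.04 and 0.17, the last again for 6 h alone. With the run as a block its adjusted p was 0.0858, and that of Hsp90ab1 1375335_at 0.114. The Dnajb1 difference in the accumbens shell was -0.01 ± 0.04 (SE). The test of the difference between regions gave -0.14 ± 0.05 (SE), an unadjusted p of 0.0115 and an adjusted p of 0.446 in limma, and 0 of 17572 probe sets passed it (9.39% at an unadjusted p under 0.05, 1650 in number).

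Of the J-domain proteins, Dnaja1 in the accumbens shell gave 0.13 ± 0.05 (SE) by 1398819_at, with 23 of 31 ethanol arrays above the water mean and an adjusted p of 0.324 in limma. Its brighter probe set, 1368852_at, gave 0.03 ± 0.05 (SE). For Hspa8 in the accumbens shell the difference was 0.10 ± 0.05 (SE; 95% interval 0.00 to 0.20; adjusted p = 0.435 in limma), with 22 of 31 ethanol arrays above the water mean. Hsp90ab1 1375335_at gave 0.18 ± 0.08 (SE) there, and Hsp90aa1 1388850_at 0.22 ± 0.12 (SE). The steadiest probe set bounded its own difference most closely: Hsp90aa1 1372701_at in the CeA differed by 0.00 with a 95% interval of -0.04 to 0.04. The gene's other probe set, 1388850_at, gave 0.06 in the CeA, and a bound for the gene is not shown. Hspb1 was at -0.07 ± 0.08 (SE) in the CeA and -0.04 ± 0.07 (SE) in the accumbens shell, and Hspa4 at -0.09 ± 0.12 (SE) and 0.06 ± 0.09 (SE).

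The median ethanol difference of the 15 member probe sets was 0.03 in the CeA, beside -0.00 over all tested, and 0.06 in the accumbens shell, beside 0.01. It was above 0 for 12 of 15 in the CeA (background 49.3%) and for 13 of 15 in the accumbens shell (53.4%). Probe sets of a gene and members that vary together are not independent, so these counts are a description. At single times no member passed either (background 0% called in limma). The largest single-time difference among those with the smallest p values was Hsp90ab1 1375335_at at 1 h in the CeA, 0.45 ± 0.18 (SE; adjusted p = 0.902), and the ethanol by hours interaction called 0 probe sets in each region (250 and 161 at an unadjusted p under 0.05 in the CeA and accumbens shell).

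**Figure D2:**
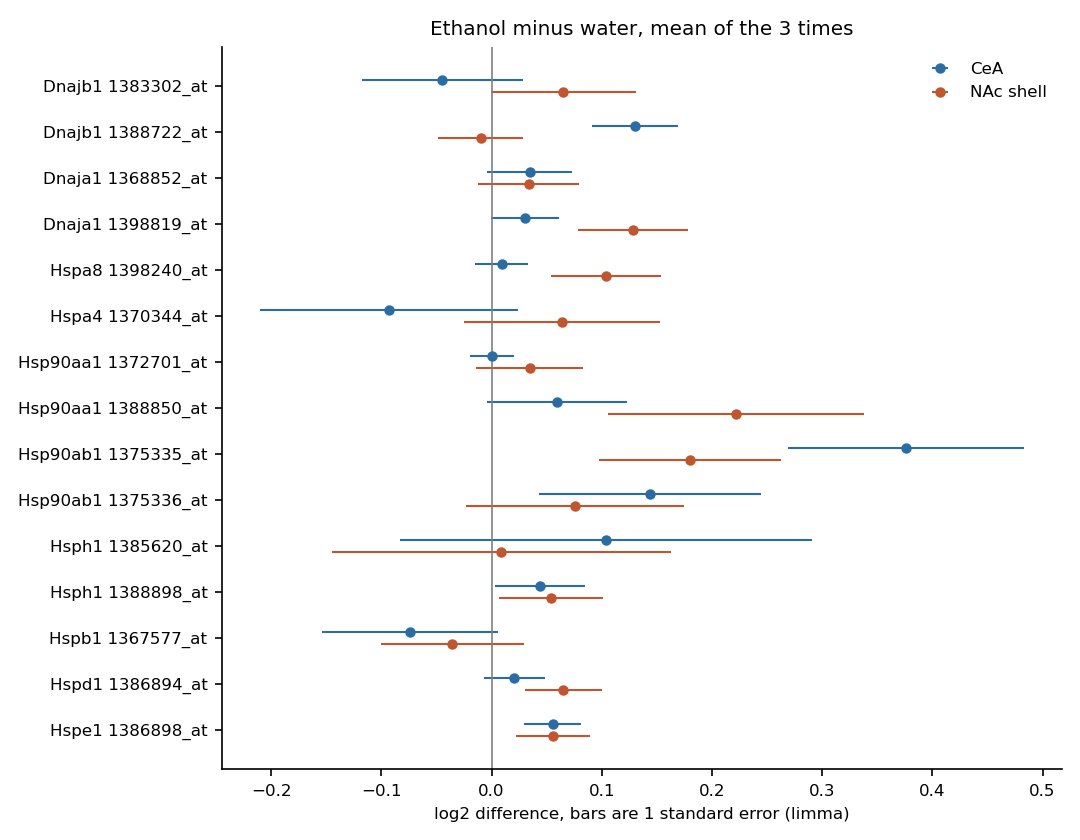
Ethanol minus water (log2 difference, mean of 3 times) for each of the 15 probe sets in the CeA (blue) and the accumbens shell (orange), with bars of 1 standard error from the limma fit (31 ethanol and 17 water arrays per region). None passed an adjusted p under 0.05, and the largest difference is Hsp90ab1 1375335_at in the CeA at 0.38.

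With the hours since the session, 3 members differed between 24 h and 6 h. In the CeA, Hsp90aa1 by its second probe set, 1388850_at, fell by 0.36 on the log2 scale and Hspb1 by 0.42. In the accumbens shell, Dnajb1 rose by 0.23. Each change had the same sign in ethanol and water rats, and none was shown to differ between regions. Arrays at different hours may also differ in time of day, which cannot be told apart here from the hours since the session. The limma comparison of 24 h with 6 h, averaged over treatments, called 2 of 15 member probe sets in the CeA against a background of 0.247% (46 of 18625) and 1 of 15 in the accumbens shell against 0.0859% (16). The joint test of the 3 times called 0 members in both regions, against 0.166% in the CeA (31 probe sets) and 0.0805% in the accumbens shell (15). Its smallest adjusted p values among members were 0.0866 for Hsp90aa1 1388850_at, 0.159 for CeA Hspb1 and 0.0912 for accumbens shell Dnajb1, so that the 3 calls rest on 1 pair of times. The test of whether the effect of hours differed between regions called 0 of 17572 probe sets (658 at an unadjusted p under 0.05, 3.74%), with an adjusted p of 0.963 for Dnajb1 1388722_at.

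Hsp90aa1 1388850_at in the CeA had lowest, median and highest values of 12.87, 13.14 and 13.65 at 1 h, 12.92, 13.30 and 13.82 at 6 h, and 12.59, 12.99 and 13.20 at 24 h, over both treatments. The water rats at 6 h read 12.92, 13.29, 13.36, 13.37 and 13.82. The times overlapped, and 16 of 16 arrays at 24 h were below the 6 h mean of their treatment. The difference of 24 h minus 6 h was -0.36 ± 0.08 (SE), 0.778-fold, with an adjusted p of 0.0243 in limma, and it was -0.25 within ethanol rats and -0.47 within water rats. Within the 4 runs of title numbers it was -0.26, -0.19, -0.41 and -0.34. In run 4 ethanol replicate 31 is the only array at 24 h, so the last value rests on it. The brighter Hsp90aa1 probe set, 1372701_at, gave -0.02 ± 0.02 (SE), so the change was seen by only 1 of the gene's 2 probe sets. Probe set 1388850_at in the accumbens shell gave -0.00 ± 0.15 (SE). Of the 4 CeA arrays that stood apart, 3 were at 6 h, and without the 4 the difference was -0.27 with an adjusted p of 0.364; without CeA water replicate 16 alone it was -0.30 (0.135). For 24 h minus 6 h in the CeA, 6 of 6 tested central amygdala markers lay above 0 (median 0.47, 2 at an unadjusted p under 0.05) and 8 of 9 medium spiny neuron markers (median 0.17), beside 49.6% of all probe sets, and none passed. Of the general neuron markers, 6 of 8 lay below 0 (median -0.07, 2 at an unadjusted p under 0.05), beside 50.4% of all, and none passed. The 7 central amygdala markers summed to between 62.5 and 76.5 at 6 h and between 64.7 and 75.7 at 24 h. The part of these marker lists in the Hsp90aa1 and Hspb1 differences was not tested.

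Hspb1 in the CeA ran from 7.54 to 8.51 at 1 h with a median of 7.96, from 7.86 to 8.60 at 6 h with a median of 8.20, and from 7.37 to 8.41 at 24 h with a median of 7.83. Water rats at 6 h read 8.12, 8.13, 8.23, 8.51 and 8.56. The 6 h arrays were the highest as a group and overlapped both other times, and 15 of 16 arrays at 24 h were below the 6 h mean of their treatment. The difference of 24 h minus 6 h was -0.42 ± 0.10 (SE), 0.746-fold, with an adjusted p of 0.0425 in limma, -0.34 within ethanol rats and -0.51 within water rats. Within the runs it was -0.60, -0.38, -0.25 and -0.36, the last again with ethanol replicate 31 as the only array at 24 h. With the run as a block it was -0.37 with an adjusted p of 0.130 in limma. Without the 4 arrays that stood apart it was -0.41 (0.257), and the call was lost in 20 of 48 fits that left out 1 array. Endothelial and mural markers, genes of the vessels, averaged 8.38, 8.48 and 8.42 in the CeA at 1, 6 and 24 h, and summed to between 64.9 and 70.4 at 6 h and between 65.8 and 69.2 at 24 h over 8 markers, all above the filter limit. Of these 8, 1 passed the joint test of hours in limma, as did 0.166% of all probe sets. For 6 h minus 1 h, 1 of 8 passed and was higher at 6 h, beside 0.0537% of all. None of the 8 passed for 24 h minus 6 h, and 2 had an unadjusted p under 0.05. In that comparison, 7 of 8 endothelial and mural markers lay below 0 (median -0.08), 5 of 7 microglial markers (-0.10), 7 of 7 oligodendrocyte markers (-0.08) and 4 of 8 astrocyte markers (median 0.00), beside 50.4% of all. Their part in the Hspb1 difference was not tested. The accumbens shell gave -0.11 ± 0.08 (SE).

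Dnajb1 (1388722_at) in the accumbens shell had lowest, median and highest values of 12.02, 12.19 and 12.35 at 1 h, 11.80, 12.10 and 12.25 at 6 h, and 12.15, 12.27 and 12.68 at 24 h. Water rats read 11.86, 12.09, 12.11, 12.16 and 12.22 at 6 h and 12.24, 12.26, 12.32, 12.33 and 12.38 at 24 h. Over both treatments the arrays at 6 h and 24 h overlapped. All 16 arrays at 24 h lay above the 6 h mean of their treatment. The difference of 24 h minus 6 h was 0.23 ± 0.05 (SE), 1.17-fold, with an adjusted p of 0.0389 in limma, 0.24 within ethanol rats and 0.22 within water rats. The second Dnajb1 probe set, 1383302_at, gave 0.09 ± 0.08 (SE), and the CeA gave 0.02 ± 0.05 (SE) by 1388722_at. The call was lost in 12 of 48 fits that left out 1 array, with the highest adjusted p, 0.135 at a difference of 0.20, without accumbens shell water replicate 26 at 6 h. The RNA end difference of the accumbens shell had a mean of 1.88 at both times. Medium spiny neuron markers lay above 0 in 9 of 9 cases for 24 h minus 6 h in the accumbens shell (median 0.10, beside 56.8% of all probe sets above 0) and below 0 in 9 of 9 for 6 h minus 1 h (median -0.11, beside 57.2% below 0), and none passed. The 9 markers summed to between 102.4 and 114.1 at 6 h and between 104.1 and 116.3 at 24 h, and their part in the Dnajb1 difference was not tested.

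The other members did not pass. Hsp90ab1 1375335_at gave -0.35 ± 0.13 (SE; adjusted p = 0.330 in limma) for 24 h minus 6 h in the CeA, Hsph1 1388898_at -0.11 ± 0.05 (SE; 0.418) and Dnaja1 1398819_at -0.10 ± 0.04 (SE; 0.330). In the CeA 12 of 15 member probe sets lay below 0 in this comparison (background 50.4%; median -0.06 beside -0.00 over all). From 1 to 6 h, 15 of 15 CeA probe sets lay above 0 (background 55.7%; median 0.08 beside 0.01), and 0 passed, against 0.0537% of all probe sets. At an unadjusted p under 0.05, 6 of 15 passed from 1 to 6 h in the CeA, of 3.31% of all: both of Dnaja1, both of Hsp90aa1, Hspa8 and Hspb1. Of the accumbens shell probe sets, 4 of 15 lay above 0 from 1 to 6 h (background 42.8%), and 0 passed against 0.0268%. All 15 had a lower 6 h minus 1 h difference in the accumbens shell than in the CeA (background 59.6%), and the test of that difference passed for 0 probe sets in limma (5.18% at an unadjusted p under 0.05, 4 of 15 members). From 1 to 6 h the mean RNA end difference went from 1.68 to 1.88 in the accumbens shell and from 2.92 to 2.95 in the CeA. Several member probe sets followed it, as given below, and its part in these counts of direction was not tested. The comparison of 24 h with 1 h called 0 probe sets in both regions (430 in the CeA and 1830 in the accumbens shell at an unadjusted p under 0.05). The 3 comparisons of hours share arrays in pairs, so their counts are not separate evidence.

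**Figure D3:**
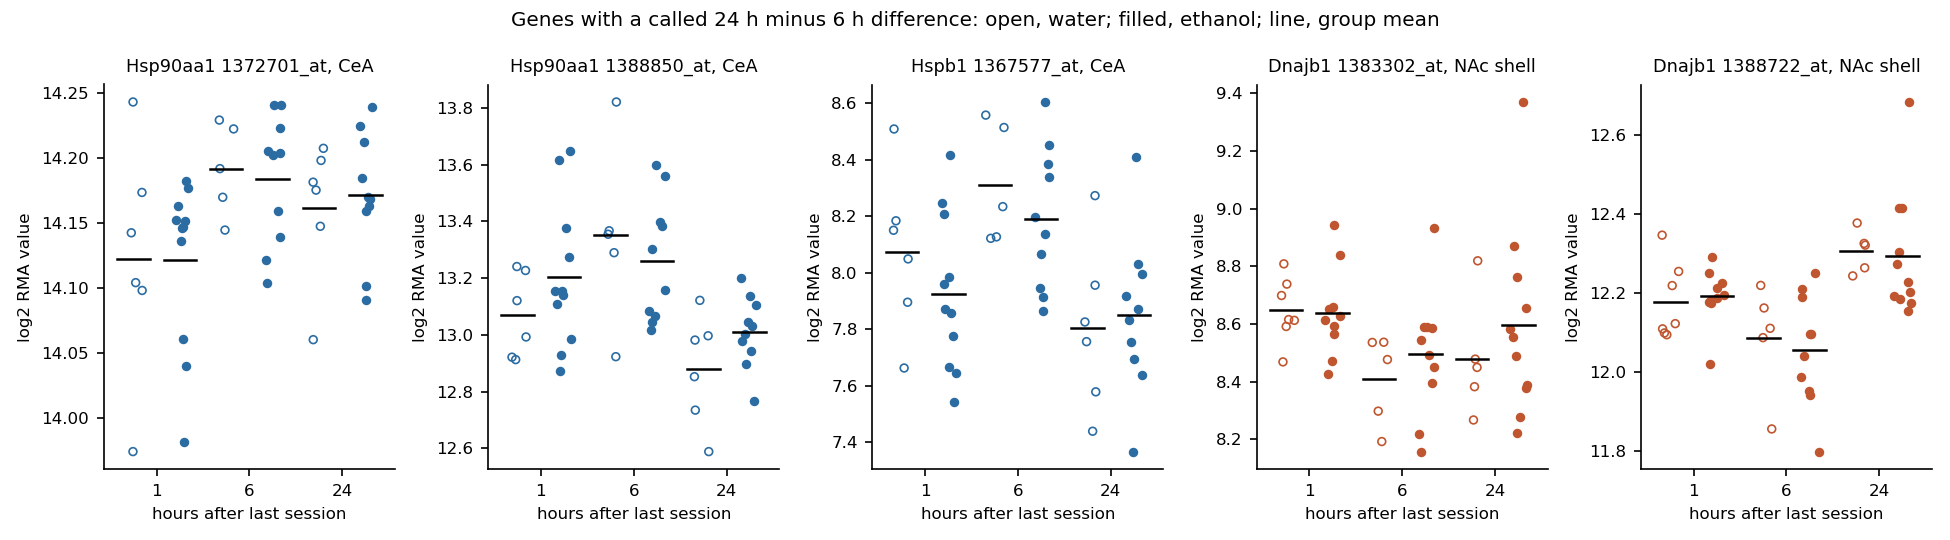
Log2 level by hours since the last session for every probe set of the 3 genes with a passing comparison of 24 h with 6 h: Hsp90aa1 and Hspb1 in the CeA (blue) and Dnajb1 in the accumbens shell (orange). Open points are arrays of water rats, filled points those of ethanol rats and lines group means. Over both treatments the arrays at 6 h and 24 h overlap for each probe set.

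Between regions, 8 of the 10 genes had a probe set that differed in water rats. Hsph1 was higher in the accumbens shell by both probe sets, Hspb1 was higher by 0.20, and Hsp90ab1, Hsp90aa1, Dnaja1, Hspe1, Dnajb1 and Hspd1 were lower by at least 1 probe set. Called members numbered 10 of 15 probe sets, against 73.8% of all 17572, so the share of members that differed was no larger than that of the array. The authors' table appears to have been normalized by region, since the lower quartile of a CeA array lay between 5.75 and 5.88 and that of an accumbens shell array between 6.01 and 6.16. Small differences of level between regions therefore depend on scaling.

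Hsph1, the Hsp110 exchange factor, ranged in the CeA from 12.33 to 12.96 and in the accumbens shell from 13.20 to 13.93 by 1388898_at, with no overlap between any of the 48 arrays of each region. How many of all probe sets separate the regions in this way was not counted. The difference in water rats was 0.80 ± 0.05 (SE; adjusted p = 4.27e-26 in limma), 0.81 in ethanol rats, and 0.80 with quantile normalization repeated over all arrays. Probe set 1385620_at gave 0.88 ± 0.20 (SE; adjusted p = 5.07e-05), and 1.01 with the RNA end difference as a covariate.

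The Hsp90 genes each had 1 probe set far lower in the accumbens shell and 1 at a similar level. Hsp90ab1 1375335_at ran from 10.50 to 12.80 in the CeA and from 9.70 to 10.91 in the accumbens shell, with a difference of -1.26 ± 0.11 (SE; adjusted p = 5.91e-18 in limma), while 1375336_at gave -0.06 ± 0.12 (SE). Hsp90aa1 1388850_at ran from 12.59 to 13.82 and from 11.58 to 13.02, a difference of -0.99 ± 0.11 (SE; adjusted p = 1.21e-13), while 1372701_at gave -0.01 ± 0.04 (SE). Values with the RNA end difference as a covariate were -1.23 and -0.99. Which transcript or part of it each probe set reads was not tested, so a lower level of the whole gene is not shown.

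Dnaja1 was lower in the accumbens shell by both of its probe sets, -0.44 ± 0.05 (SE; adjusted p = 1.04e-13 in limma) and -0.26 ± 0.05 (SE; 7.52e-07). Hspe1, the lid of the mitochondrial chaperonin, differed by -0.20 ± 0.03 (SE; 2.13e-07) and its partner Hspd1 by -0.08 ± 0.04 (SE; 0.0308). Dnajb1 (1388722_at) differed by -0.13 ± 0.04 (SE; 0.00705), but by -0.06 (0.158) with repeated normalization, and Hspb1 by 0.20 ± 0.08 (SE; 0.0268), but by 0.17 (0.0505). Hspa8 gave 0.05 ± 0.04 (SE; 0.354) in water rats, -0.05 (0.0371) with repeated normalization, and 0.14 ± 0.03 (SE; 7.77e-05) in ethanol rats, so its direction between regions is not settled. The size of the difference, without sign, had a median of 0.20 over member probe sets and 0.32 over all.

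Across arrays of a region, with the means of the 6 groups removed, several members varied together. Hspa8 followed Hsp90aa1 most closely, in both regions. The brightest probe set of each gene was used, which gives 45 pairs per region and 90 in all, each over 48 arrays, with two-sided permutation p values from 100000 resamples adjusted over the 90 (Benjamini-Hochberg). In the CeA 16 of 45 pairs passed, 15 of them positive. Over all pairs of tested probe sets, 34% had an r at least as large in size as the smallest that passed, and 18.7% counting positive r alone. The CeA count of both signs is thus close to its background, while the count of positive pairs is above its own. Pairs share genes, so these counts are a description. Of the accumbens shell pairs 22 passed, 18 of them positive, against 21.9% and 13.1%. The median r of member pairs was 0.23 in the CeA and 0.29 in the accumbens shell, beside 0.0205 and 0.021 over all pairs. In both regions with the same sign, 9 pairs passed.

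Hspa8 and Hsp90aa1, the Hsp70 and Hsp90 of the client pathway, had a Pearson r of 0.70 and a Spearman rho of 0.68 in the CeA (adjusted permutation p = 9e-05 and 0.00015), and an r of 0.83 and a rho of 0.83 in the accumbens shell. Over all pairs of probe sets, 1.89% had a higher r in the CeA and 0.0609% in the accumbens shell. Without the 2 arrays farthest from the median of Hspa8, r was 0.57 and 0.78. Within the CeA runs it was 0.43, 0.81, 0.71 and 0.84, and with the RNA end difference removed it stayed at 0.70 and 0.83.

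Hspa8 and Hspd1 gave r of 0.59 and rho of 0.46 in the CeA (adjusted permutation p = 0.000208 for r; 0.42 without the 2 farthest arrays) and r of 0.73 and rho of 0.77 in the accumbens shell (0.68). The chaperonin partners Hspd1 and Hspe1 gave r of 0.46 and rho of 0.41 in the CeA (adjusted permutation p = 0.00428 and 0.0153). In the accumbens shell they gave r of 0.64 and rho of 0.59. Without the 2 farthest arrays of the region, r was 0.37 in the CeA and 0.58 in the accumbens shell. In the CeA 11.6% of all pairs were higher, and in the accumbens shell 1.52%. Hsp90aa1 and Hspe1 gave r of 0.70 in the accumbens shell and 0.11 in the CeA, a difference that was not tested.

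Hspa4 and Hsp90ab1 gave r of 0.53 in the CeA (rho 0.55; adjusted permutation p = 0.000847 for r) and 0.77 in the accumbens shell (rho 0.76). Both genes' probe sets followed the RNA end difference, and with it removed r was 0.15 and 0.49. Hspb1 had negative correlations with some members and a positive one with Dnajb1 in the accumbens shell (0.39). With Hspa4 its r was -0.58 in the accumbens shell (rho -0.52; adjusted permutation p = 0.000208 for r; -0.47 with the RNA end difference removed) and -0.14 in the CeA. With Hsp90ab1 it was -0.35 in the CeA (adjusted permutation p = 0.0345) and -0.43 in the accumbens shell (0.00621), and -0.19 and -0.23 with the RNA end difference removed. The inducible and constitutive Hsp90 genes did not follow each other by these probe sets, with r of 0.14 and 0.09.

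**Figure D4:**
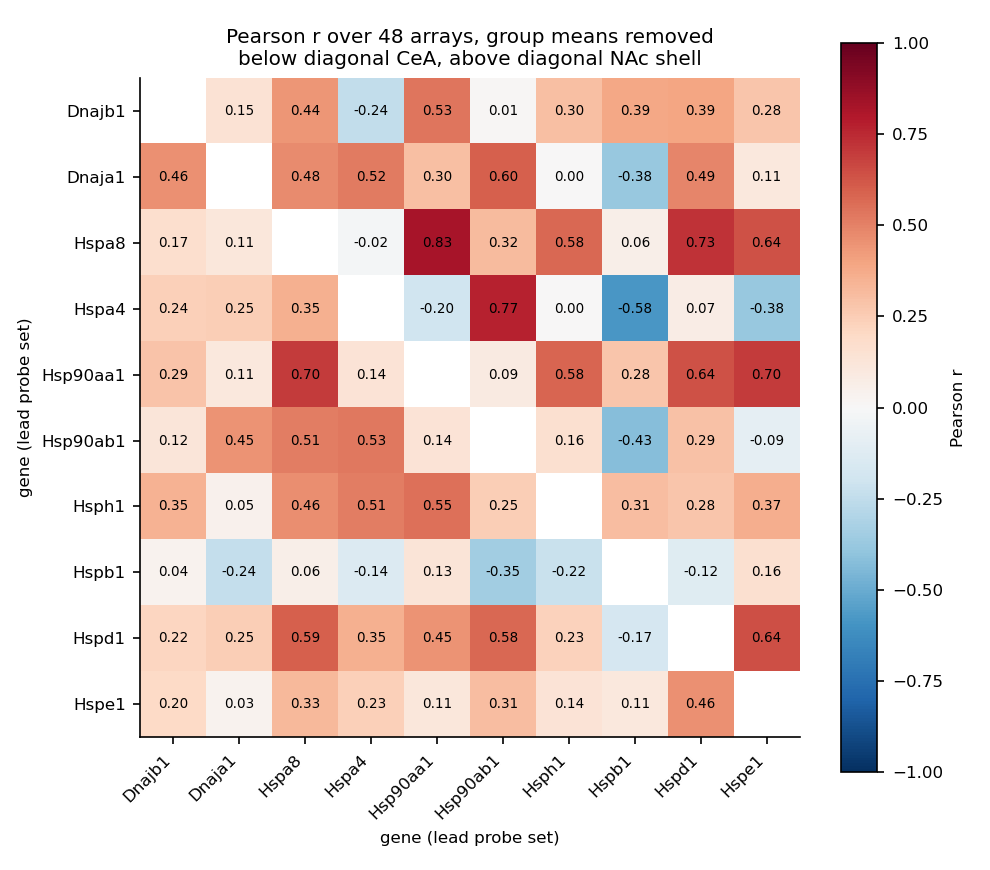
Pearson r between the brightest probe sets of the 10 genes over 48 arrays with group means removed, CeA under the diagonal and accumbens shell over it. Colour and the number in each cell give r, and Hspa8 with Hsp90aa1 is the highest pair in both regions, at 0.70 and 0.83.

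Several probe sets moved with the RNA end difference. Over 48 arrays with group means removed, Hsph1 1385620_at had r of -0.88 in the CeA and -0.83 in the accumbens shell, Dnajb1 1383302_at -0.83 and -0.72, Hspa4 -0.68 and -0.72, and Hsp90ab1 1375336_at -0.66 and -0.77. Hspa4 in the CeA had an adjusted permutation p of 7.5e-05 over 30 relations, and the other 7 of these relations 4.29e-05. The probe sets with the calls above were less related to it: Hsp90aa1 1388850_at had 0.21 and 0.03, Dnajb1 1388722_at -0.12 and 0.13, and Hspb1 0.33 and 0.38 (adjusted permutation p = 0.051 and 0.018). Hspa8 had -0.35 in the CeA and 0.09 in the accumbens shell, and Hsp90aa1 1372701_at -0.15 and 0.15. Some probe sets that differed between regions also followed it in 1 region. Hsph1 1388898_at had -0.54 in the CeA (adjusted permutation p = 0.0004) and 0.22 in the accumbens shell. Dnaja1 1368852_at had -0.02 in the CeA and -0.50 in the accumbens shell (0.00096), and Hsp90ab1 1375335_at 0.07 and -0.39 (0.018). Probe sets of the same gene seldom tracked each other. Of 10 same-gene relations, Hsph1 in the CeA (r = 0.53, adjusted permutation p = 0.0007) and Hsp90ab1 in the accumbens shell (r = 0.62, adjusted permutation p = 0.0001) passed, while the Hsp90aa1 probe sets gave 0.17 and 0.11. In each passing relation both probe sets also followed the RNA end difference, and r with it removed was not computed. Dnaja1 in the accumbens shell passed by rho (0.39, adjusted permutation p = 0.0226) but not by r (0.34, 0.067).

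**Figure D5:**
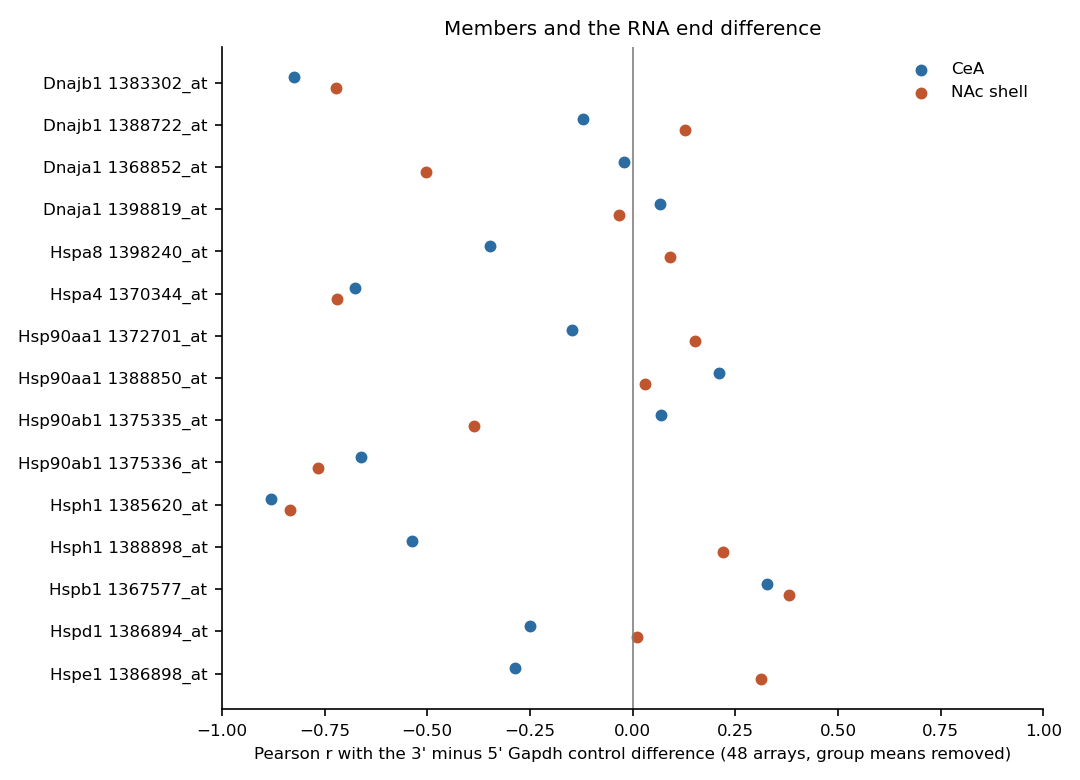
Pearson r of each of the 15 probe sets with the RNA end difference of the array (3′ minus 5′ Gapdh control probe set, log2) over 48 arrays with group means removed, CeA in blue and accumbens shell in orange. Hsph1 1385620_at is farthest below 0 in both regions (-0.88 and -0.83).

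The other genes of the chaperone system were taken from 8 lists: heat shock factors and their regulators, other Hsp70s, other J-domain proteins, Hsp70 exchange factors and E3 ligases, Hsp90 co-chaperones, other small heat shock proteins, the cytosolic chaperonin with prefoldin, and other mitochondrial chaperones. None of their tested genes passed for ethanol or for hours in either region, and the values that follow did not pass. In the accumbens shell, the ethanol difference was above 0 for 13 of 13 chaperonin and prefoldin genes (median 0.13; 7 at an unadjusted p under 0.05), 16 of 16 J-domain genes (0.06; 2), 11 of 13 Hsp90 co-chaperones (0.06; 4), 7 of 9 exchange factors and E3 ligases (0.12; 4), 10 of 10 mitochondrial chaperones (0.07; 1), 7 of 7 other Hsp70s (0.07; 2) and 4 of 4 small heat shock proteins (0.02; 1). Over all probe sets 53.4% lay above 0, the median was 0.01 and 11.1% had an unadjusted p under 0.05, a share that the J-domain count is close to. Several lists of cell type markers lay above 0 there as well, 7 of 7 for neurons (median 0.05), 8 of 8 for astrocytes (0.05) and 6 of 6 for microglia (0.09), while 3 of 7 oligodendrocyte markers (-0.01) and 1 of 8 endothelial and mural markers did (-0.05); their part was not tested. In the CeA the ethanol difference was above 0 for 9 of 13 chaperonin and prefoldin genes, 8 of 17 J-domain genes, 6 of 13 Hsp90 co-chaperones, 2 of 9 exchange factors and E3 ligases, 5 of 10 mitochondrial chaperones, 6 of 7 other Hsp70s and 1 of 4 small heat shock proteins, beside 49.3% of all. In the accumbens shell Hspbp1, an Hsp70 exchange factor, gave 0.21 ± 0.05 (SE; adjusted p = 0.206 in limma). Cdc37, which brings kinases to Hsp90, gave 0.17 ± 0.04 (SE; 0.215), and the chaperonin subunits Cct2 and Cct4 0.21 ± 0.07 (SE; 0.262) and 0.15 ± 0.05 (SE; 0.260). Fkbp4, an Hsp90 partner of steroid receptors, gave 0.25 ± 0.09 (SE; 0.303) and Stub1, the ligase that marks chaperone clients for degradation, 0.13 ± 0.05 (SE; 0.298).

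For 24 h minus 6 h, the other small heat shock proteins lay above 0 in 2 of 4 cases in the CeA and 1 of 4 in the accumbens shell, and the other Hsp70s in 3 of 7 and 2 of 7. Exchange factors and E3 ligases lay above 0 in 3 of 9 in the CeA and 6 of 9 in the accumbens shell, and chaperonin and prefoldin genes in 2 of 13 and 1 of 13, beside 49.6% and 56.8% of all. Other J-domain genes did so in 10 of 17 and 11 of 16, and other mitochondrial chaperones in 8 of 10 and 8 of 10. For Hsp90 co-chaperones it was 4 of 13 and 2 of 13, and for heat shock factors and regulators 1 of 3 and 1 of 3. Cryab, a small heat shock protein of oligodendrocytes and astrocytes, gave -0.71 ± 0.25 (SE; adjusted p = 0.302 in limma) in the CeA and -0.39 ± 0.14 (SE; 0.665) in the accumbens shell. Bag3, a stress-induced partner of the small heat shock proteins, gave -0.28 ± 0.12 (SE; 0.415) in the CeA. Hspa1a, the classical stress-inducible Hsp70, gave 0.39 ± 0.12 (SE; 0.430) in the accumbens shell. Hsf1 gave -0.12 ± 0.08 (SE) in the CeA and -0.06 ± 0.08 (SE) in the accumbens shell, and Hsf2 0.10 ± 0.05 (SE) and 0.06 ± 0.05 (SE). Fkbp5, a co-chaperone induced by glucocorticoids, gave -0.32 ± 0.11 (SE) for 6 h minus 1 h in the CeA. Oligodendrocyte markers averaged 12.72, 12.72 and 12.68 in the CeA at 1, 6 and 24 h, and their part in the Cryab difference was not tested.

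Among 12679 probe sets of other single genes, likeness to a member was measured by Pearson r over the 12 group means, each centred on its region. Closest to Dnajb1 were Smg8 (0.894), Cipc (0.891) and Pspn (0.863). Closest to Hspb1 were Klhdc7a (0.940), Mrps24 (0.934) and Aass (0.917), and closest to the brighter Hsp90aa1 probe set, which is not the one that passed, were Ctnnd2 (0.906), Orc3 (0.870) and Tomm22 (0.815). These are the highest of many over 12 points that share their arrays, and are given as a description.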

How the data were processed

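Log2 expression values on 96 arrays were analysed as the authors deposited them in a single table. They were made by RMA, per the submitters' processing notes; its version, the scanner settings and any filter are not given in the sources used here. Per the labels' protocols, RNA was extracted with Trizol and RNeasy and labelled in 2 cycles from 25 ng. Of 31099 probe sets, 57 controls were left out; 20826 had 1 symbol, 436 several and 9780 were not listed. All columns matched a labelled array, and no arrays were identical.

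The members and all lists were chosen with earlier results of these data known. Probe sets above the 40th percentile of mean log2 level were tested, 18625 per region and 17572 in both. Each region was fitted with limma 3.58.1 in R 4.3.3 (6 group means, moderated variances with an intensity trend, Benjamini-Hochberg adjustment, adjusted p under 0.05), and both regions together for comparisons between them, with arrays as independent. The fit was tested on simulated data. Correlations used scipy 1.17.1. The number of arrays limits the precision. All members are named; from each list, the genes with the smallest p for hours and for ethanol were eligible. Alternatives were no filter, a 60th percentile filter, repeated quantile normalization, array weights, the RNA end difference as a covariate, blocks, and arrays left out. Title numbers did not pair the arrays.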

Additional observations from a re-analysis of the deposited data

Results flagged for a closer look

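In 150 groups of 4 to 10 arrays, taken per probe set, the gap between the extreme array and its nearest neighbour was compared with the range of the group by Dixon's test at 95%. It marked 9 groups, 6% of those examined, and chance marks about 1 in 20. The 9 values came from 8 arrays.

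Dnajb1 1388722_at had a high array among CeA ethanol rats at 6 h, 12.65 against 12.47 for the next, and a low array among accumbens shell ethanol rats at 1 h, 12.02 against 12.18. Dnaja1 1368852_at had a high array among CeA ethanol rats at 6 h, 14.21 against 13.95, which was also an array that stood apart. The same probe set had low arrays in the accumbens shell among ethanol rats at 6 h, 13.06 against 13.28, and among water rats at 24 h, 12.97 against 13.28. On that water array the other Dnaja1 probe set, 1398819_at, was high, 12.66 against 12.40. Hspa8 had a low array among CeA ethanol rats at 24 h, 14.49 against 14.60. Hsp90ab1 1375335_at had a low array among CeA water rats at 24 h, 10.50 against 11.29, in the comparison in which ethanol rats had the higher mean. Hspd1 had a high array among accumbens shell ethanol rats at 1 h, 13.81 against 13.54, and this array also stood apart.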

How the results depend on the processing

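The count of member probe sets that passed for 24 h minus 6 h in the CeA was 2, and was 1 with no filter, with a 60th percentile filter, with array weights and with the title run as a block, and 0 without the 4 arrays that stood apart. The joint test of hours in the accumbens shell passed for 0 members and for 1 with array weights. With each of the 48 arrays of a region left out in turn, the CeA count for 24 h minus 6 h ran from 0 to 2, the accumbens shell count from 0 to 1, that for ethanol in the CeA from 0 to 1 and that for the joint test of hours in the CeA from 0 to 1. Between regions in water rats it ran from 9 to 10 over 15 fits, each without 1 array of a group of 5. The 24 h minus 6 h difference ran from -0.42 to -0.30 for Hsp90aa1 1388850_at, from -0.47 to -0.39 for CeA Hspb1 and from 0.20 to 0.24 for accumbens shell Dnajb1. Hspa8 between regions in water rats turned from 0.05 to -0.048 with repeated quantile normalization; the cause was not tested.

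With the title number as a replicate block, Hsp90aa1 1388850_at was at -0.36 (adjusted p = 0.0253 in limma), Hspb1 at -0.42 (0.0484) and accumbens shell Dnajb1 at 0.23 (0.0356). The replicate block changed no other call. Arrays with the same number in the CeA had a mean correlation of deviations of 0.0725 over 17 numbers, so the numbers were not treated as pairs.

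Pairs of genes that passed the correlation test in the CeA numbered 16, and 11 with the RNA end difference removed, a setting added after the data were seen. With the means of the title runs removed 14 passed, 10 of them among the 16. In the accumbens shell 22 passed, and 21 with the RNA end difference removed, 17 of them among the 22. Negative pairs there went from 4 to 1. Without the arrays that stood apart 18 passed in each region, 15 of them among the pairs of the main test. The number of arrays and the closeness of Hspb1 to the filter limit bound what small differences can show.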
